A study of Mus musculus with 96 samples.

Results

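This comparison sets the striatum of Q140 knock-in mice at 10 months of age against that of control mice of the same age, across microRNA hairpins. Its members are 32 of the 96 small RNA libraries of the study, chosen by genotype and age: 8 Q140 libraries and 24 control libraries, each from 1 mouse, with 4 females and 4 males in every genotype. All mice carried the C57BL/6 strain label and no treatment was named for any group. The Q140 mice were heterozygous: 1 *Htt* allele was wild type, and exon 1 of the other was replaced by human *HTT* exon 1 with a long CAG repeat. The controls were 8 heterozygous Q20 knock-in mice, 8 wild-type mice of the Q20 line and 8 wild-type mice of the Q50 line. By the sample labels, Q140 mice were housed with other Q140 heterozygotes and the controls with wild-type mice and heterozygotes of the Q20 or of the Q50 line. The study's methods describe mixed cages of wild-type and heterozygous mice without setting Q140 apart, so the housing of Q140 mice is uncertain. Wild-type siblings of Q140 mice are not among these libraries, so repeat length and line, and housing where it differed, cannot be told apart.

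An expanded CAG repeat in the huntingtin gene causes Huntington's disease, in which the medium spiny neurons of the striatum are among the most vulnerable cells. MicroRNAs are cut from hairpin precursors by Drosha and Dicer and, once loaded into Argonaute proteins, lower the stability and translation of messenger RNAs with matching sites. Several hairpins can lie close together and be transcribed as a unit, and different hairpins can give mature microRNAs that are nearly identical.

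Hairpins were identified by miRBase accessions only, and no source used here pairs these with microRNA names, so identifiers are printed without a name, a function or a sequence. Neither the brain microRNA families nor the cell type markers could therefore be looked up, and the tissue label was not checked against markers. Messenger RNA data were not used here, so the *Htt* genotype was not checked against expression either. The table lists 1187 hairpins, of which 1000 had a value above 0 in at least 1 of the 32 libraries. The 497 hairpins that passed the filter on low counts held 99.992% of the counts. Library totals were 7249287 ± 1390920 counts in Q140 mice (SD, n = 8) and 7059158 ± 2109322 in controls (n = 24), a difference smaller than the spread (two-sided permutation test, p = 0.817). One control library, Q20 female replicate 1, stood apart with a connectivity Z of -5.35, below the threshold of -5 at which the study removed libraries. In whole striatum, fewer cells of a type and less RNA per cell cannot be told apart.

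At 10 months, 80 of 497 hairpins differed between Q140 and control mice, 16.1% of those tested. Of these, 48 were higher (9.66%) and 32 were lower (6.44%) in Q140 mice. Calls required an adjusted p below 0.05 in the edgeR quasi-likelihood test with sex as a covariate. The higher group contained the large changes: 15 of its 48 members rose by more than 1 on the log2 scale, and none of the 32 lower members fell by that much. Most changes were smaller, with a median log2 difference of 0.35 among the higher and -0.38 among the lower hairpins, against -0.01 over all hairpins tested. When each library was scaled by its total count alone, 43 were higher and 46 lower, and in limma on log2(FPKM + 1) the split was 40 and 45. Without Q20 female replicate 1, 92 hairpins were called.

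**Figure D1:**
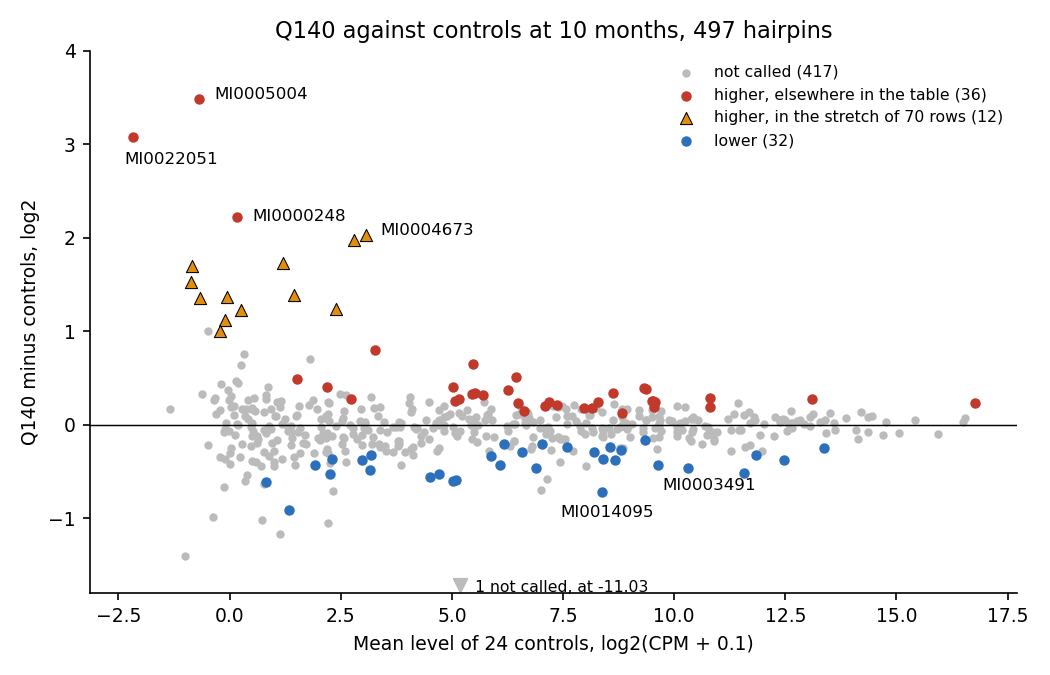
Difference between Q140 and control mice at 10 months (log2, vertical axis) against the mean control level (log2(CPM + 0.1), horizontal axis) for 497 hairpins. The 12 triangles, called hairpins from 1 stretch of the table, and 3 labelled circles make up the 15 hairpins that rose by more than 1; a grey triangle marks 1 hairpin beyond the axis, at -11.03, that was not called.

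The rise with the smallest adjusted p was that of MI0004673. Its level in the 8 Q140 mice was lowest at 24.9, median 34.5 and highest at 44.2 CPM, the count per total of a library after TMM adjustment. In the 24 controls it was lowest at 5.47, median 8.09 and highest at 10.6 CPM. Every Q140 mouse thus lay above every control mouse. The log2 difference was 2.03 ± 0.09 (SE; adjusted p = 1.80e-18, edgeR), a 4.09-fold higher level. In 4 of the 32 libraries its value was not a whole number, which a split of reads between hairpins would produce, although how such values arose is not stated.

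MI0005513 behaved in the same manner. In Q140 mice it ranged from 18.4 to 34.1 CPM with a median of 27.2. Control levels ranged from 4.17 to 8.86 CPM with a median of 6.84. No Q140 mouse overlapped the controls, and the log2 difference was 1.98 ± 0.10 (adjusted p = 3.08e-17, edgeR), or 3.94-fold. Only 1 of its 32 values was not whole.

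Among hairpins that fell, MI0003491 had the smallest adjusted p. It was counted at 520.1 CPM in the lowest Q140 mouse, at a median of 604 and at 628 CPM in the highest, while the controls ran from 592 to 912 CPM with a median of 801. The groups overlapped: all 8 Q140 mice were below the control mean of 799 CPM and 3 of them were below the lowest control. The log2 difference was -0.43 ± 0.06 (adjusted p = 7.57e-07, edgeR), and all values of this hairpin were whole numbers. The lowest control was Q20 female replicate 1.

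MI0014095 fell further but with more spread among controls. Q140 mice held 169 to 225 CPM with a median of 201, and controls 171 to 413 CPM with a median of 347. Again all 8 Q140 mice were below the control mean, of 330.5 CPM, but just 1 lay below every control. The overlap came from 2 Q20 mice, female replicate 1 at 171 CPM and male replicate 3 at 200.4 CPM, whereas the 16 wild-type mice were all above the Q140 range. The log2 difference was -0.72 ± 0.10 (adjusted p = 1.58e-06, edgeR). None of its 32 values was a whole number.

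**Figure D2:**
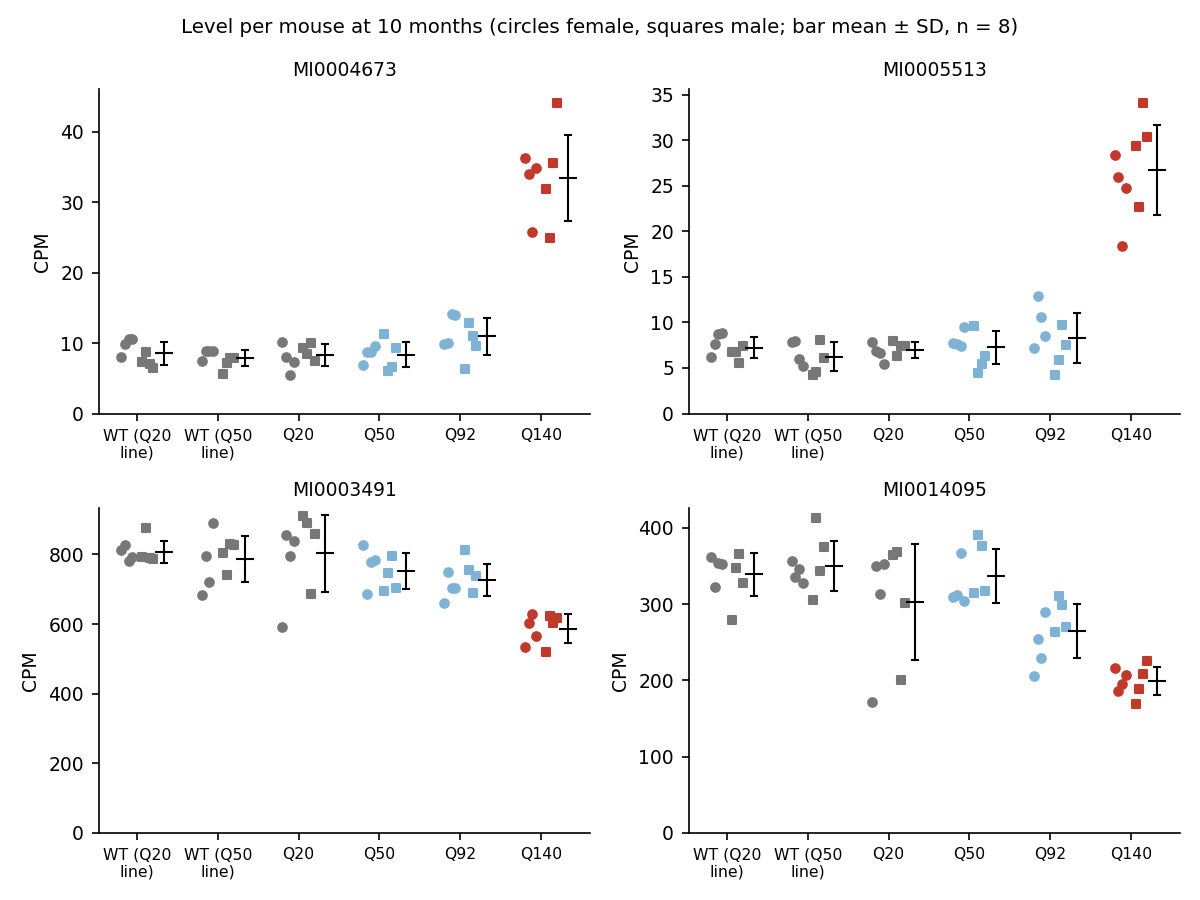
Level of 4 hairpins in each mouse at 10 months (CPM, vertical axes from 0) by genotype, with circles for females, squares for males and bars for the mean ± SD of 8 mice. For MI0004673 and MI0005513 the Q140 mice stand above every other mouse, and for MI0003491 and MI0014095 the Q140 mean is the lowest of the 6 genotypes.

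Most of the large rises came from hairpins listed close together in the deposited table. Within a stretch of 70 consecutive rows, chosen after its values were seen and therefore given without a test, 14 hairpins were tested. All 14 had a positive log2 difference, 12 of them were called higher and none was called lower. These 12 changed by 1.0 to 2.03 on the log2 scale, with a median of 1.37, and make up 12 of the 15 hairpins that rose by more than 1. What the order of the rows follows was not given. MI0004673 and MI0005513 both belong to this stretch.

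The summed level of the 14 hairpins was 83.2 CPM in the lowest Q140 mouse, with a median of 101 and a highest value of 124 CPM. In controls the sum was 26.7, 32.2 and 39.6 CPM at the lowest, the median and the highest mouse. MI0004673 and MI0005513, with Q140 medians of 34.5 and 27.2 CPM, held a large part of the Q140 sum. The stretch was chosen on these same mice, so a gap between the groups was largely built in by that choice. Single hairpins of the stretch were sparse: the control means of the 12 called hairpins ran from 0.448 to 8.23 CPM. The sparsest of them could pass the filter on low counts through the Q140 libraries. Within the 32 libraries compared, values that were not whole occurred in 12 of the 14 tested members. MI0005512 and MI0006128 were both called members. Over all 96 libraries, their parts after the decimal point added up to whole numbers in 13. In each of the 32 fits that left out a library, 12 hairpins of the stretch were called. These fits share most of the libraries on which the stretch was chosen. Without a filter on low counts 18 of 42 were called, while with a filter at a mean of 10 CPM, or with hairpins of whole values only, 2 members were tested and both were called. Against wild-type mice of the Q50 line alone 9 of the 14 were called.

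Outside the stretch, the remaining 36 called risers had a median log2 difference of 0.28, and 3 of them exceeded 1. These 3 were singled out after their values were seen. MI0005004 showed the largest log2 difference of any called hairpin, 3.48 ± 0.33 (adjusted p = 4.46e-10, edgeR). Its Q140 levels ran from 1.67 to 11.1 CPM with a median of 6.06, from 11 to 77 counts per library. Control levels ran from 0 to 1.67 CPM with a median of 0.479, and 4 of the 24 controls had no count. The filter on low counts took in the Q140 libraries, so this hairpin could be tested because it was high in them. All 8 Q140 mice were above all controls, although the lowest Q140 mouse had 1.669 CPM and the highest control 1.666 CPM.

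The other two each rested on 1 mouse. MI0000248 reached 47.1 CPM in Q140 female replicate 4, whereas the Q140 median was 0.826 CPM and the highest control had 1.93 CPM. Its log2 difference of 2.22 ± 0.56 (adjusted p = 0.00487, edgeR) became -0.34 (adjusted p = 0.429) without that library. MI0022051 reached 11.2 CPM in Q140 male replicate 1. It had no count in 4 of the 8 Q140 mice and in 15 of the 24 controls, and its log2 difference of 3.08 ± 0.80 (adjusted p = 0.00516, edgeR) became -0.41 (adjusted p = 0.818) without that library.

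A hairpin that was not called had a still wider contrast. MI0025035, picked out because of its value, had a rounded count of 0 in all 8 Q140 mice and in 22 of the 24 controls. In 12 of the 32 libraries its value was not whole, so some of these zeros were small parts of a count. Over all 96 libraries, its parts after the decimal point and those of MI0000153 added up to whole numbers in 35. MI0025035 reached 871 CPM in wild-type female replicate 1 of the Q20 line. The fitted difference was not called (adjusted p = 0.0889, edgeR), and this 1 library carried it.

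**Figure D3:**
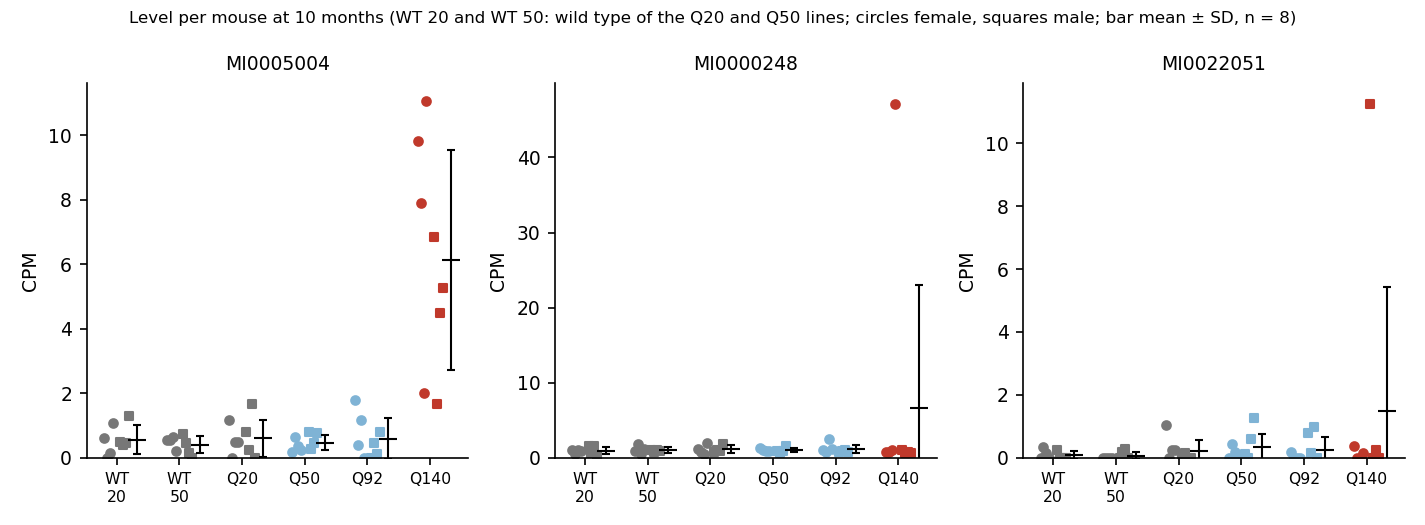
Level in each mouse at 10 months (CPM, vertical axes from 0) of the 3 hairpins outside the stretch of rows that rose by more than 1 on the log2 scale, with circles for females, squares for males and bars for the mean ± SD of 8 mice. For MI0005004 all 8 Q140 mice are above all controls, but the highest Q92 mouse, at 1.807 CPM, is above the lowest Q140 mouse, at 1.669 CPM. MI0000248 and MI0022051 each have 1 Q140 mouse far above the rest, at 47.1 and 11.2 CPM.

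Complete separation of the groups was rare. All 8 Q140 mice were above all 24 controls for 8 of 497 hairpins (1.61%) and below all of them for 1 (0.201%). The 8 were all called higher and 5 of them lay in the stretch of rows. The only hairpin entirely below the controls, MI0000597, singled out after its values were seen, ran from 38.5 to 48.8 CPM in Q140 mice and from 49.3 to 75.5 CPM in controls. Its log2 difference was -0.34. Short of complete separation, all 8 Q140 mice were on the called side of the control mean for 38 of the 48 risers and 30 of the 32 fallers. Over all hairpins tested, all 8 were above the control mean for 54 (10.9%) and below it for 67 (13.5%).

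Larger changes were called among sparse hairpins, where the error was larger too. Among the 36 hairpins with a control mean under 1 CPM, 8 were called higher and none lower, with a median log2 rise of 1.45 and a median standard error of 0.31 over the class. Among the 117 hairpins between 100 and 1000 CPM, 14 rose and 11 fell, by medians of 0.24 and -0.30, with a median standard error of 0.08. Above 1000 CPM 4 of 92 rose and 5 fell, which is 9.78% of the class. Only large changes can pass the threshold in sparse hairpins at this depth, so the classes do not show that rare hairpins changed more. The filter on low counts also took in the Q140 libraries. A hairpin under 1 CPM in controls could thus be tested because it was high in Q140 mice. The lack of fallers in that class is therefore partly built in.

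In terms of reads, the called hairpins were a minor part of the library. The 48 higher hairpins held 15.1% ± 1.0 of counts in Q140 mice (SD, n = 8) and 13.1% ± 0.82 in controls (n = 24). A single abundant hairpin, MI0000154, named here because it carries that share, held 12.8% ± 0.94 and 11.2% ± 0.78. The 32 lower hairpins together held 2.24% ± 0.06 of counts in Q140 mice and 2.88% ± 0.14 in controls. Their share was at most 2.30% in any Q140 mouse and at least 2.48% in any control. These shares describe hairpins that were chosen by the same contrast.

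Each control group was also taken by itself. Against Q20 mice alone, against wild-type mice of the Q20 line alone and against wild-type mice of the Q50 line alone, all 48 higher hairpins had a positive and all 32 lower hairpins a negative difference in mean log2(CPM + 0.5). The number called was 60 against Q20 mice only, 80 against wild-type mice of the Q20 line and 82 against those of the Q50 line. In the last of these fits 37 were higher and 45 lower. The hairpins were chosen on these same Q140 and control mice, so their signs against each control group were nearly fixed by that choice and support nothing further.

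Libraries also differed in a number that follows the letter L in their descriptions, whose meaning is not stated. Of the Q140 libraries, 7 had L number 4 and 1 had L number 5. The controls comprised 6 libraries with L number 3, 13 with L number 4 and 5 with L number 5. Within L number 4 all 80 called hairpins had the sign of the full comparison. Within L number 5, with its 1 Q140 library, all 48 risers and 31 of the 32 fallers did. These libraries also chose the calls, so the signs are a description only. A fit within L number 4 called 78 hairpins, 40 higher and 38 lower. With the L number as a factor in the fit 89 were called, of which 70 were among the 80.

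Values that were not whole also linked hairpins to each other. Over all 96 libraries, the parts after the decimal point added up to whole numbers, within 0.002, in 38 pairs of hairpins. This held in at least 90% of the libraries where either member had such a part. Both members of 28 pairs were tested. At least 1 member was called in 6 pairs, and in 3 of these both members had the same sign. In 1 pair both were called in opposite directions: MI0000568 rose by 0.28 and MI0003536 fell by 0.62 on the log2 scale, although they shared such parts in 15 libraries. Within the 32 libraries compared, 161 tested hairpins had such values and 336 had whole values only. Calls were equally frequent in both, at 16.1% each.

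At 6 months, 31 of 497 hairpins differed between 8 Q140 mice and 24 controls, 6.24% of those tested, with 12 higher (2.41%) and 19 lower (3.82%). With RLE size factors 17 were higher and 16 lower. These were other mice, scaled separately, and 1 library weighed on the count: without Q140 male replicate 1 it was 57. Of the 80 hairpins called at 10 months 22 were also called at 6 months in the same direction, which is 27.5% of the later and 71.0% of the earlier calls. None was called in opposite directions. The sign was the same at 6 months for 44 of the 48 risers and 29 of the 32 fallers.

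A difference in size by age was called for few hairpins. In a fit of all 64 libraries with an interaction of Q140 and age, 8 of 497 hairpins (1.61%) were called, 7 with a larger (1.41%) and 1 with a smaller (0.201%) log2 difference at 10 months, while 8.65% had an unadjusted p below 0.05. Without Q140 male replicate 1 of 6 months, 19 were called. All 8 belonged to the 80 hairpins called at 10 months and 4 lay in the stretch of rows. MI0000248 and MI0022051, each carried by 1 mouse, were among the others. The fit holds the same libraries of 10 months that gave those calls, so this overlap is partly built in. MI0004673 had a log2 difference of 1.11 ± 0.17 at 6 months, and the increase to 10 months was 0.90 ± 0.22 (adjusted p = 0.0137, edgeR). With the L number as a factor this increase was 0.79 and not called (adjusted p = 0.0606). For MI0005513 the difference at 6 months was 1.12 ± 0.16 and the increase 0.82 ± 0.20 (adjusted p = 0.0137). In simulated data the interaction fit recovered 14% of changes of 0.25 and 44% of changes of 0.5 on the log2 scale. A missed threshold therefore does not show equal size at both ages.

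Levels by mouse show the overlap at the younger age. At 6 months MI0004673 ran from 13.2 to 50.3 CPM in Q140 mice, with a median of 18.0, and from 5.61 to 19.2 CPM in controls. Its highest value came from male replicate 1, the same mouse that had the lowest MI0005513 level of the Q140 group, 7.05 CPM. The summed level of the 14 hairpins of the stretch was 61.4 CPM at the median of the 6-month Q140 mice, from 45.4 to 79.6 CPM, and 32.7 CPM at the median of their controls, from 28.7 to 40.7 CPM. No Q140 mouse overlapped the controls in this sum at either age.

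No change with age was called for the hairpins with the clearest falls. MI0003491 had a log2 difference of -0.35 at 6 months and a change of -0.11 ± 0.13 with age (adjusted p = 0.963, edgeR). MI0014095 had -0.62 at 6 months and a change of -0.12 ± 0.17 (adjusted p = 0.966), which was 0.023 without Q140 male replicate 1 of 6 months. MI0026033 was the only hairpin with a lower difference at 10 months among the 8, and is named for that reason. It ran from 4.96 to 8.17 CPM in Q140 mice at 10 months and from 5.57 to 14.1 CPM in controls, with a log2 difference of -0.49 ± 0.11 (adjusted p = 0.00192), against 0.12 ± 0.12 at 6 months (adjusted p = 0.617). The interaction was -0.63 ± 0.16 (adjusted p = 0.0137).

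**Figure D4:**
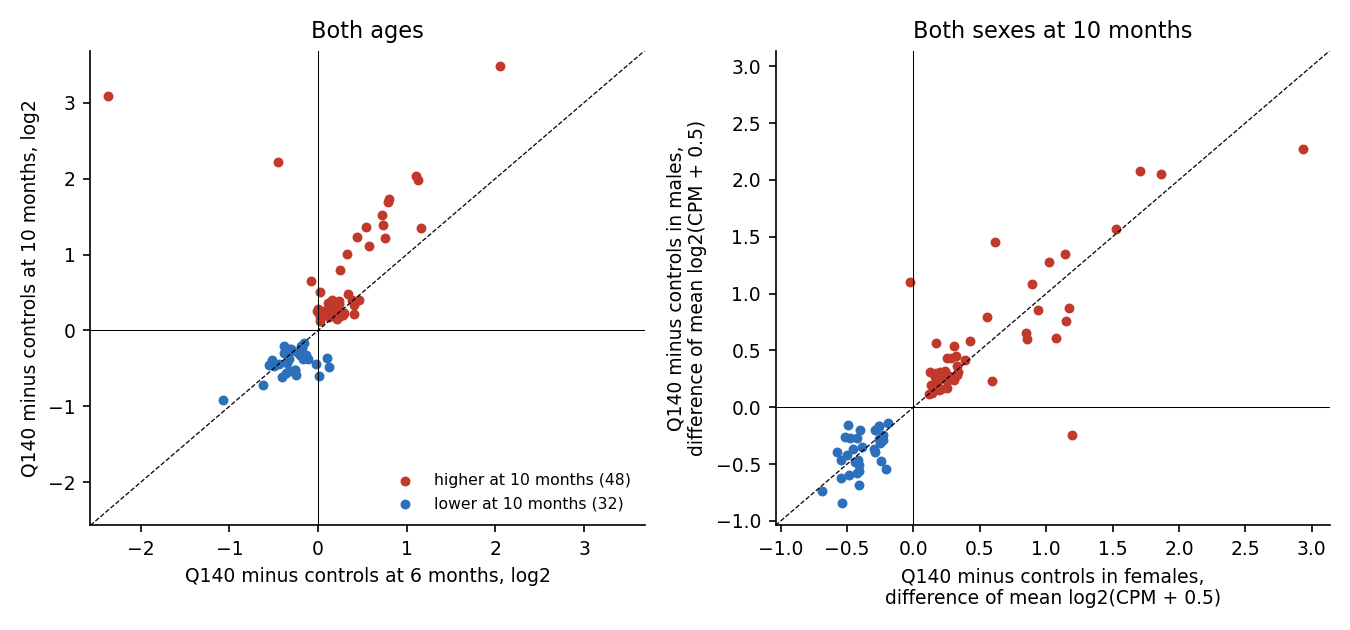
Log2 difference between Q140 and control mice at 10 months against that at 6 months (left), and in males against females at 10 months (right, difference of mean log2(CPM + 0.5)), for the 80 hairpins called at 10 months; the dashed line marks equal values. On the left 44 of the 48 higher hairpins are positive at both ages, and on the right the 32 lower hairpins are negative in both sexes.

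The called hairpins were also described within each sex. The difference in mean log2(CPM + 0.5) was positive in females for 47 of the 48 higher hairpins and in males for 47, and it was negative in both sexes for all 32 lower hairpins. The exceptions were the 2 hairpins that rested on single mice. Both sexes together chose these hairpins, so their signs within each sex were nearly fixed by that choice. No hairpin was called for an interaction of Q140 and sex in edgeR, where 15 (3.02%) had an unadjusted p below 0.05 and DESeq2 called 1, MI0000248, at -4.04 (adjusted p = 0.0176), the hairpin carried by Q140 female replicate 4. With 4 Q140 mice of each sex, a missed threshold does not show that the sexes respond alike. For MI0004673 the interaction, male minus female, was 0.25 ± 0.20 on the log2 scale (adjusted p = 0.997).

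Mice with shorter repeats were placed beside these values without a test against the same controls. Q92 female replicate 1 and Q92 male replicate 4 had a connectivity Z of -11.4 and -5.08, below the study's threshold of -5. Both libraries were kept here. For MI0004673 the Q50 mice had 8.37 ± 1.74 CPM (mean ± SD, n = 8) and the Q92 mice 10.96 ± 2.63, against 33.4 ± 6.13 in Q140 mice and 8.23 ± 1.43 in controls (n = 24). For MI0005513 the means were 7.28 ± 1.83 in Q50, 8.31 ± 2.77 in Q92 and 26.7 ± 4.91 CPM in Q140 mice. The highest control was exceeded by 4 of 8 Q92 and 1 of 8 Q50 mice for MI0004673, and by 3 and 2 for MI0005513. For the 2 fallers named by rule the means declined from Q50 to Q140: MI0014095 had 337 ± 35.0 CPM in Q50, 265 ± 35.4 in Q92 and 199 ± 18.3 in Q140 mice. MI0003491 had 752 ± 52.7, 726 ± 47.1 and 587 ± 41.5 CPM in the same order, where the Q50 and Q92 means differed by less than their SD. The control means were 330.5 CPM for MI0014095, below its Q50 mean, and 799 CPM for MI0003491. Of the 32 lower hairpins, 16 had a Q50 mean and 29 a Q92 mean below the control mean. Of the 48 higher hairpins, 35 had a Q50 mean and 45 a Q92 mean above it. The same controls helped to choose these hairpins, so the side on which other groups fell was partly built in. The same counts over all hairpins tested are not given here. Summed over the 14 hairpins of the stretch, the Q50 median was 32.5 CPM and the Q92 median 39.3 CPM.

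A direct test of Q140 against Q92 mice at 10 months used no control library, but it reused the same Q140 libraries. It called 27 of 497 hairpins, 5.43%, of which 18 were higher (3.62%) and 9 lower (1.81%) in Q140 mice, and with total counts alone 13 and 10. The count was 14 without Q140 male replicate 3, 14 without Q92 male replicate 2 and 17 without Q92 female replicate 4. Without Q92 female replicate 1, the library furthest below the connectivity threshold, it was 35. DESeq2 called 43. All 4 hairpins described first were among the 27: MI0004673 was higher by 1.62 ± 0.15 (adjusted p = 9.48e-07, edgeR) and MI0005513 by 1.70 ± 0.19 (adjusted p = 6.06e-06). MI0003491 was lower, at -0.29 ± 0.06 (adjusted p = 0.00481), as was MI0014095, at -0.39 ± 0.08 (adjusted p = 0.00876). Of the 14 tested hairpins of the stretch, 9 were called higher in Q140 than in Q92 mice. MI0005004 was higher by 3.32 ± 0.51 (adjusted p = 0.000672). The same Q140 libraries chose these hairpins and the stretch, so these calls are partly carried over from that choice.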

How the data were processed

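Small RNA of striatum was measured in 96 libraries, 1 per mouse. Per the study's methods, the authors aligned single-end reads of enriched small RNA to mm10 with STAR and counted them with HTSeq; the submitters' processing notes name CASAVA 1.8.2. The first deposited table holds estimated counts per hairpin, and 20.1% of values above 0 in the 32 libraries were not whole within 0.001. How the division of reads arose is not stated. The second deposited table holds FPKM values that the authors made from these counts; they imply a hairpin length and served in limma only. Both tables give miRBase accessions without names, so the chosen microRNA lists and cell type markers could not be matched.

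Estimated counts were rounded, filtered with filterByExpr (minimum count 10, over all 96 libraries) and tested in edgeR 4.0.16 (R 4.3.3): TMM factors, robust quasi-likelihood fits, sex as covariate, Benjamini-Hochberg adjustment over 497 hairpins. The study's batch covariate is not in the labels and was not used. CPM levels were TMM-scaled over the 48 libraries of each age. Totals ranged from 4118213 to 12530911 counts. Errors cover mice and counting together. Library totals were compared by a permutation test with 100000 resamples. Alternatives were DESeq2 1.42.0, limma 3.58.1, other scalings, filters and controls, the L number, a replicate block, single libraries left out, and the study's handling of outliers.

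The comparison, lists and tests were chosen with earlier results of these data known. Named by rule were the 2 risers and the 2 fallers of smallest adjusted p, since no names were at hand; any other was singled out after its values were seen. No 2 libraries were duplicates (smallest chi-square per degree of freedom 26.3). Fits were tested on simulated data. Columns outside the sample map numbered 0.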

Additional observations from a re-analysis of the deposited data

Results flagged for a closer look

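Single mice stood apart within their group of 8 at 10 months by Dixon's criterion, and 60 groups were examined. For normal values the criterion flags about 1 in 20 groups by chance. That rate does not hold here, since several hairpins were singled out after their values were seen and some groups were mostly zeros. MI0000248 was at 47.1 CPM in Q140 female replicate 4 and at 2.47 CPM in Q92 female replicate 3. MI0022051 was at 11.2 CPM in Q140 male replicate 1 and at 1.04 CPM in Q20 female replicate 1. MI0026033 was at 11.7 CPM in Q92 female replicate 1 and at 14.1 CPM in Q20 male replicate 3. MI0025035 was at 1120.0 CPM in Q92 male replicate 4, at 541 CPM in Q50 male replicate 2, at 871 CPM in wild-type female replicate 1 of the Q20 line and at 0.199 CPM, 1 count, in Q20 male replicate 1. The rounded count of MI0025035 was 0 in the other mice of 10 months.

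The Q140 difference was not the same at both ages for 8 hairpins by the interaction test in edgeR. Among those described, the change from 6 to 10 months was 0.90 for MI0004673, 0.82 for MI0005513, -0.63 for MI0026033, 2.89 for MI0000248 and 5.71 for MI0022051 on the log2 scale. Without Q140 female replicate 4 that of MI0000248 was 0.06 (adjusted p = 0.991), and without Q140 male replicate 1 that of MI0022051 was 1.90 (adjusted p = 0.951).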

How the results depend on the processing

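The count of hairpins called at 10 months, 80, ranged from 54 to 107 over 19 other settings and from 67 to 92 when single libraries were left out, the latter without Q20 female replicate 1. Under the study's handling of outliers, which removed that library (connectivity Z -5.35) and replaced 227 values, DESeq2 called 107. Leaving out Q20 female replicate 1, Q140 female replicate 4 and Q140 male replicate 1 together, chosen after the data were seen, gave 67. The 4 hairpins named by rule were called in every setting in which they were tested. They were chosen on libraries that these settings reuse, so this was largely built in. MI0005004 was called in all 50 settings in which it was tested, and it too was singled out on these libraries.

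At 6 months, 18 hairpins were called with no filter on low counts, and 21 to 57 with single libraries left out. The age interaction called 3 with a filter at a mean of 10 CPM, where fewer hairpins were tested, and 7 to 19 with libraries left out; that of MI0004673 was 0.79 (adjusted p = 0.0606) with the L number as a factor, and that of MI0014095 ran from -0.17 to 0.023 with libraries left out. The sex interaction called 1 in DESeq2 and 0 to 1 with libraries left out (1 without Q140 female replicate 1, 2 or 3). Against Q92 mice, DESeq2 called 43 and left-out libraries gave 14 to 35. The difference in mean library total was -187089 to 460955 counts, negative only without Q140 female replicate 2. MI0000248 turned to -0.34 without Q140 female replicate 4, to -0.33 under the study's handling of outliers and to -0.40 without the 3 libraries above, and MI0022051 to -0.41 without Q140 male replicate 1; with other libraries left out they reached 2.42 and 3.77. MI0026033 was not called against wild-type mice of the Q50 line alone (-0.34, adjusted p = 0.0806).

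The replicate numbers did not pair the mice: residuals of 48 same-numbered pairs had a mean correlation of -0.01, from -0.35 to 0.46. With the replicate block 83 hairpins were called at 10 months and 17 against Q92 mice. For other moved values the cause was not tested.

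Limits: no wild-type siblings of Q140 mice, no names, an unknown division of reads, a batch covariate that was not used, and sparse counts, with a median standard error of 0.31 on the log2 scale under 1 CPM against 0.07 above 1000 CPM.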

Other observations

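The tested hairpins had implied lengths of 49 to 147 bases. The median was 92.0 bases for the 48 higher hairpins, 83.5 for the 32 lower and 82.0 over all 497.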
